A study of Mus musculus with 6 samples.

Results

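The classical protein tyrosine phosphatases remove phosphate from tyrosine residues of signaling proteins, and their genes carry the names Ptpn (mostly cytoplasmic enzymes) and Ptpr (mostly enzymes that span the plasma membrane). In lymphocytes they set the activity of the Src family kinases, of Syk and Zap70 and of the Jak kinases, and in NK cells (NKC) the SH2-domain phosphatases bind the phosphorylated tails of inhibitory receptors and carry their signal. The genes described here are those on the array whose single symbol is Ptpn and a number or Ptpr and a single letter, 32 of the 18193 genes represented, read by 81 probe sets. Of these, 16 are Ptpn and 16 are Ptpr genes. Ptprz1, Ptprn2 and Ptprcap do not follow the naming rule and are no members.

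The 6 arrays measured splenic NKC of ICR mice aged 6 weeks, 3 of them wild type (WT, Runx3 +/+) and 3 lacking the transcription factor Runx3 (Runx3-/-). Each array is described as holding the RNA of 1 mouse, yet all of them are labelled male and female. The cells were enriched by negative selection, sorted for DX5 and left unstimulated (resting). DX5 is the integrin CD49b, which basophils and some T cells also carry, so the sort can hold cells other than NKC. Signals are log2 GC-RMA values, and a gene was tested if its brightest probe set reached log2 5 on at least 1 array, the level used here as background. Signals of different probe sets are not amounts of RNA and are not ranked against each other, and on bulk RNA fewer cells of a type and less RNA per cell cannot be told apart.

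Between 37.9% and 39.4% of probe sets per array were at log2 5 or more. The signal of Runx3, the targeted gene, was 10.11, 11.56 and 10.73 in WT and 7.76, 8.51 and 8.68 in Runx3-/-, so that the groups did not overlap and lay in the order of their labels (5.59-fold lower, limma adjusted p = 0.0565). The 17 NKC markers on the array were at log2 5 or more on all 6 arrays, with a mean log2 signal of 12.88 to 13.24 in WT and 12.94 to 13.18 in Runx3-/-. Among them Eomes, a transcription factor of NKC, was called 1.63-fold lower (limma adjusted p = 0.185). Transcripts that mark other cell types were detected too, and which cells carried them was not tested. The 14 basophil and mast cell markers on the array averaged 7.66 to 8.09 in WT and 8.74 to 9.81 in Runx3-/-, and 9 of 12 tested members passed upward at the criteria the study applied (a change of at least 1.5-fold with p under 0.05 before adjustment, called the study's thresholds here), against 4.89% of all tested genes. Of these, 2 passed Benjamini-Hochberg adjustment at 5% (BH 5%), which 0.608% of all tested genes passed. The 14 B cell markers averaged 5.36 to 6.18 in WT and 6.33 to 7.13 in Runx3-/-, with 6 of 12 tested higher at these thresholds. Among these, Cd79a was under log2 5 on all WT arrays and passed the filter through its Runx3-/- values only. With values under log2 5 raised to 5 it was 1.74-fold higher. The 15 macrophage and monocyte markers averaged 5.62 to 5.83 in WT, but 8.11, 6.63 and 4.56 in Runx3-/- replicates 1, 2 and 3, so that replicate 1 stood above and replicate 3 below all WT arrays. Of 13 tested macrophage markers 3 were higher, among them Adgre1 (3.63-fold) and Cd163 (2.44-fold), whose groups did not overlap. Cd14, the other, reached log2 5 on Runx3-/- replicate 1 only (5.64) and its groups overlapped. With values under log2 5 raised to 5 it was 1.16-fold higher. T cell markers did not separate the groups (6.40 to 6.87 in WT, 6.50 to 6.79 in Runx3-/-), and Cd4, Cd6, Cd8a, Cd8b1, Ctla4 and Trat1 were under log2 5 on all arrays. Dendritic cell markers averaged 5.95 to 6.23 in WT and 5.92 to 6.13 in Runx3-/-, with Ccr9, Cd209a, Siglech and Xcr1 under log2 5 on all arrays, but Itgax, which encodes CD11c and is also expressed by NKC, was 4.01-fold lower in Runx3-/- (adjusted p = 0.105) with groups that did not overlap. Platelet and neutrophil markers varied widely within both groups.

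**Figure D1:**
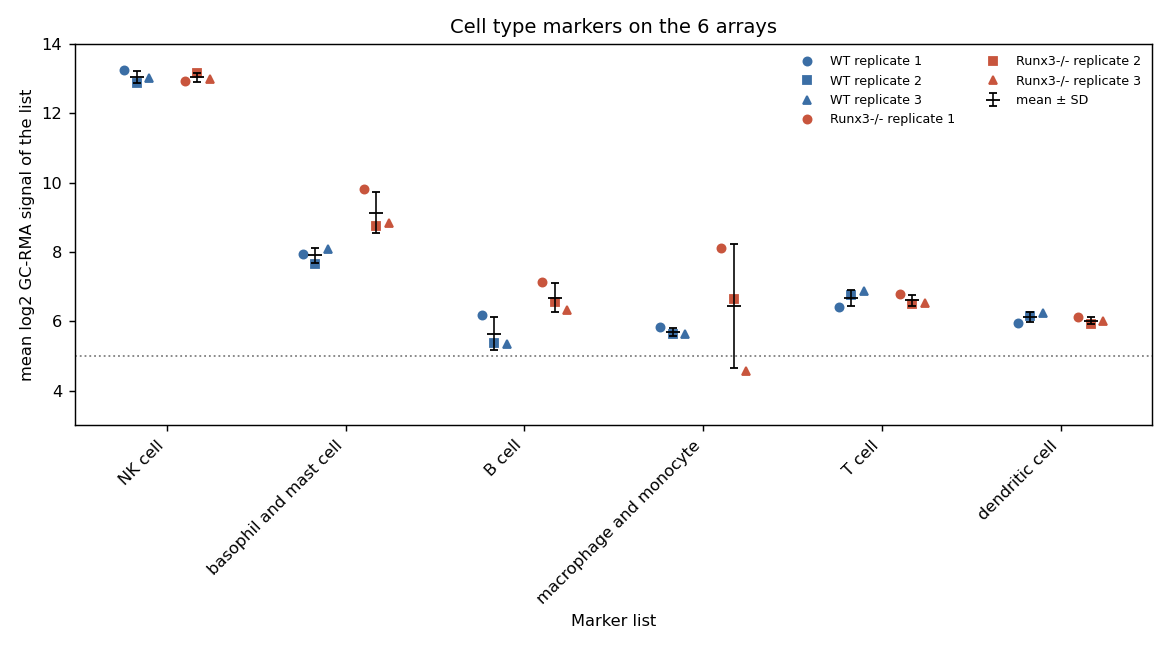
Mean log2 GC-RMA signal of 6 lists of cell type markers (horizontal axis) on each array, WT in blue and Runx3-/- in red, each group with its mean and SD over 3 arrays in black and a dotted line at log2 5. The basophil and B cell lists lie higher on all Runx3-/- arrays than on all WT arrays, and the macrophage list spreads from 4.56 to 8.11 in Runx3-/-.

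The sorted resting cells gave signal for a subset of the family. Of the 32 genes, 19 passed the filter, 12 Ptpn and 7 Ptpr genes, and 17 of them were at log2 5 or more on all 6 arrays. The other two, Ptprj and Ptpro, passed on some arrays only. Signal above background was found for CD45 (Ptprc), for both SH2-domain phosphatases (Ptpn6 and Ptpn11), for PTP1B and TCPTP (Ptpn1 and Ptpn2), for the PEST-type phosphatases (Ptpn12, Ptpn18 and Ptpn22) and for both receptors with a short outer domain (Ptpra and Ptpre). It was also found for 3 FERM-domain phosphatases (Ptpn3, Ptpn4 and Ptpn21), for Ptpn9 and Ptpn23, and for the receptors Ptprs and Ptprv. The 13 genes under log2 5 on all arrays, with values from 2.04 to 4.32, were Ptpn5, Ptpn13, Ptpn14, Ptpn20, Ptprb, Ptprd, Ptprf, Ptprg, Ptprk, Ptprm, Ptprn, Ptprr and Ptpru. Among them are all 3 MAM-domain adhesion receptors on the array (Ptprk, Ptprm and Ptpru), the endothelial receptor Ptprb and the secretory granule receptor Ptprn. A signal under background does not show that a transcript is absent.

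**Figure D2:**
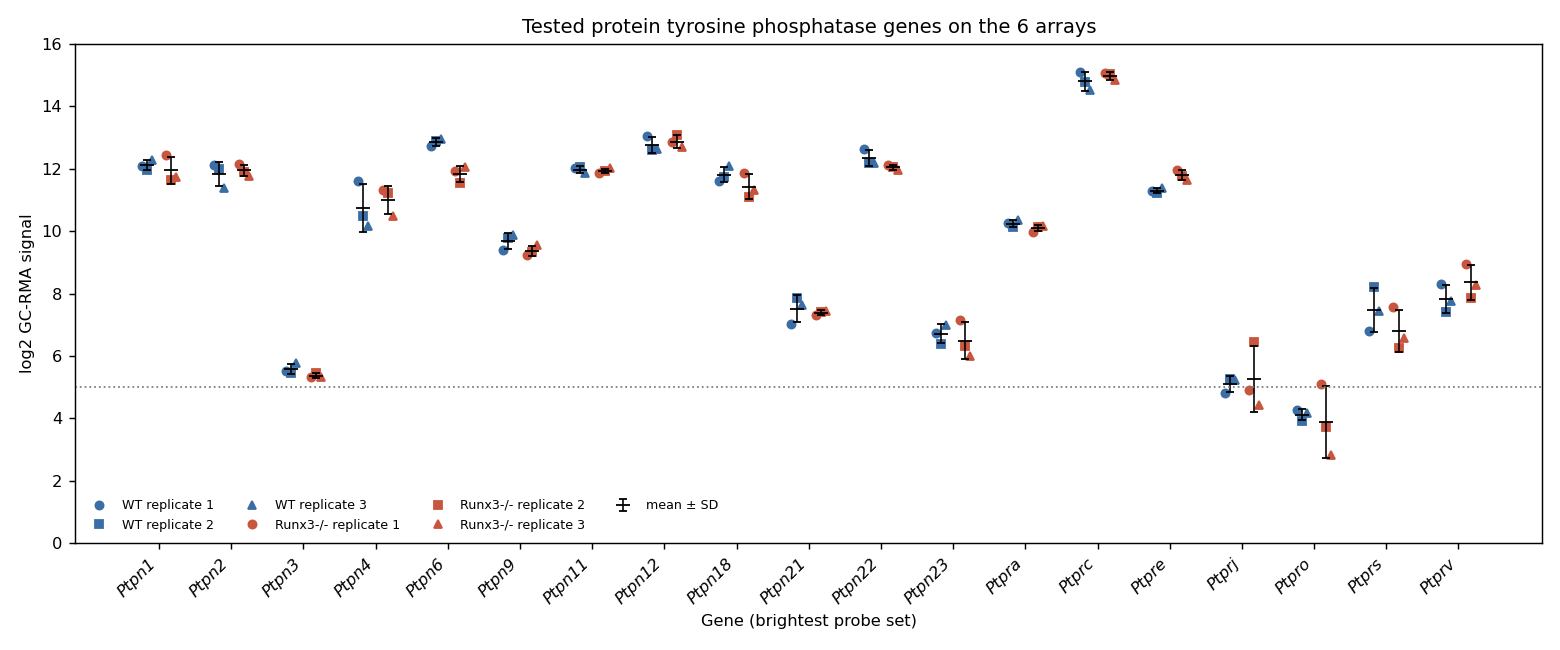
Log2 GC-RMA signal (vertical axis) of the 19 tested phosphatase genes (horizontal axis) on each array, WT in blue and Runx3-/- in red, each group with its mean and SD over 3 arrays in black and a dotted line at log2 5. The Runx3-/- values of Ptpn6 (11.56 to 12.04) lie below its WT values (12.73 to 12.97), while in most other genes the groups overlap.

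Loss of Runx3 went with a change of 1 of the 19 tested phosphatase genes at the study's thresholds. Ptpn6 was lower, and 0 genes were higher. Over all 9545 tested genes 13.8% met these thresholds, 4.89% higher and 8.86% lower, so the share in this family, 5.26%, was not above the background. At BH 5%, against 0.608% of all tested genes, the limma fit called 0 phosphatase genes (2 had an unadjusted p under 0.05). The median difference, Runx3-/- minus WT, was -0.16 on the log2 scale over the 19 genes and -0.13 over all tested genes, with 12 of the 19 differences below 0. In 17 of the 19 genes the fitted difference was under 1.5-fold. The 95% interval of the difference lay within 2-fold in either direction for 12 genes and within 1.5-fold for 1, Ptpn11. In the others the interval still held changes of 1.5-fold or more. The groups did not overlap in 3 genes, Ptpn6 and Ptpn22, which were lower, and Ptpre, which was higher. Over all tested genes the groups did not overlap in 22.8%, with 16.8% lower and 5.98% higher.

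**Figure D3:**
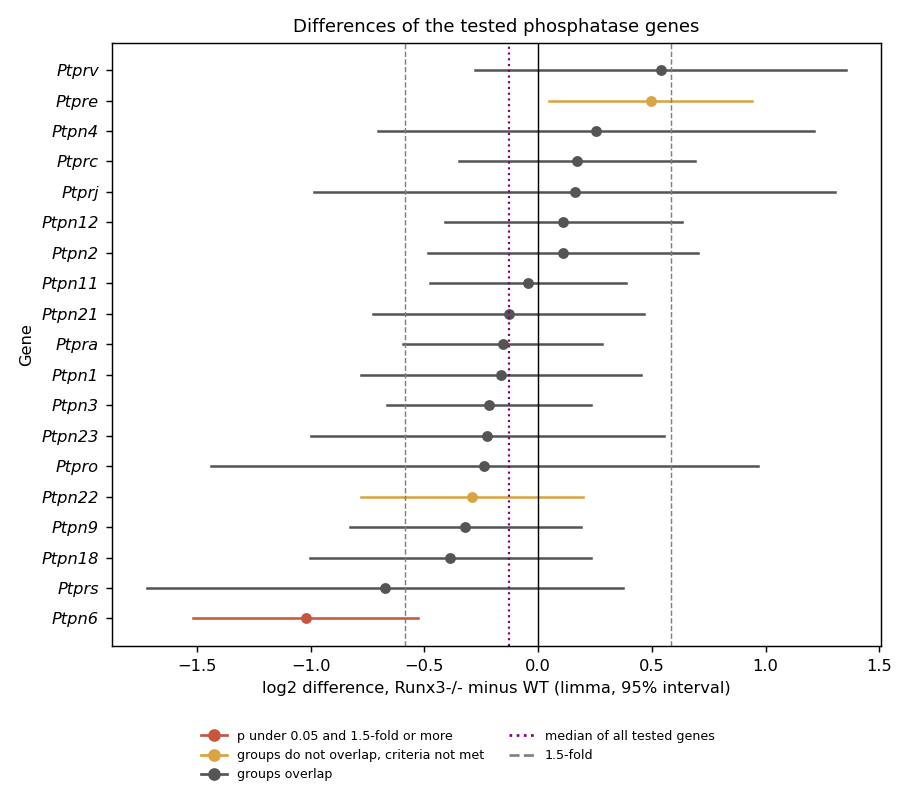
Log2 difference, Runx3-/- minus WT (horizontal axis), of the 19 tested phosphatase genes (vertical axis) with limma's 95% interval. Ptpn6 (-1.02) is the gene past the study's thresholds, Ptpre (0.50) and Ptpn22 (-0.29) have groups that do not overlap, and the dotted line is the median of all tested genes (-0.13).

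Ptpn6 encodes SHP-1, the phosphatase that Ly49 receptors, NKG2A and other inhibitory receptors recruit. Its signal was 12.73, 12.88 and 12.97 in WT and 11.91, 11.56 and 12.04 in Runx3-/-, so that each Runx3-/- array was below each WT array. The means were 12.86 ± 0.12 and 11.84 ± 0.25 (log2, SD, n = 3), a difference of -1.02 with a 95% interval of -1.51 to -0.53, or 2.03-fold lower in Runx3-/- (limma, unadjusted p = 0.00156, adjusted p = 0.101). A dimmer probe set of the gene read 8.27, 8.80 and 8.53 in WT and 8.11, 7.34 and 7.76 in Runx3-/-. It too was lower on every Runx3-/- array, by 1.74-fold (limma adjusted p = 0.268 with every probe set tested). Its suffix, _x_at, marks probes that can also bind other transcripts. The basophil and B cell markers, whose cells are known to express Ptpn6 too, were higher in the same arrays. Their part in the signal of Ptpn6 was not tested.

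Ptpn11 encodes SHP-2, the only close relative of SHP-1, which acts downstream of growth factor and cytokine receptors. Its signal was 12.02, 12.05 and 11.85 in WT and 11.86, 11.92 and 12.01 in Runx3-/-, and the groups overlapped. The difference was -0.04 on the log2 scale, with a 95% interval of -0.47 to 0.39 (limma adjusted p = 0.930). The difference between the pair can be followed within each array. Ptpn6 minus Ptpn11 was 0.71, 0.83 and 1.12 in WT and 0.05, -0.36 and 0.03 in Runx3-/-, so that the Runx3-/- arrays all lay below the WT arrays, by 0.98 on average. Since Ptpn11 varied little, this restates the separation of Ptpn6 within arrays and is given as a description.

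Ptpre encodes PTP epsilon, a receptor with a short outer domain that also exists in a cytoplasmic form and is known from macrophages and osteoclasts. Its signal was 11.30, 11.22 and 11.39 in WT and 11.96, 11.78 and 11.65 in Runx3-/-, each Runx3-/- array above each WT array. The difference, 0.50 on the log2 scale or 1.41-fold (95% interval 0.05 to 0.94), had an unadjusted p of 0.0338 but was under the 1.5-fold limit (limma adjusted p = 0.274). The dimmer probe set was 10.67, 10.26 and 10.19 in WT and 10.86, 10.73 and 10.66 in Runx3-/-. There the groups overlapped at the edge, with a 1.30-fold difference. With each array centred on the median of the tested genes, a setting added after seeing the data, the change of the brighter set was 0.62. It then met both thresholds (limma unadjusted p = 0.0104, adjusted p = 0.199), which it did in only 1 of the 18 alternatives described below. With the replicate number as a block the unadjusted p was 0.0722 (limma). The basophil list was higher on all Runx3-/- arrays, and its part in the signal of Ptpre was not tested. Ptpra, PTP alpha, the related receptor that removes the inhibitory phosphate of Src kinases, read 10.25, 10.12 and 10.37 in WT and 9.98, 10.13 and 10.16 in Runx3-/-. Its groups overlapped, with a difference of -0.16 (95% interval -0.59 to 0.28).

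The PEST-type phosphatases act on kinases and adaptors near the membrane, and Ptpn22, which encodes PEP, works with Csk to restrain Src family kinases. Its signal was 12.63, 12.18 and 12.20 in WT and 12.11, 12.07 and 11.95 in Runx3-/-. The groups did not overlap, with WT replicate 1 well above and the other WT arrays just above the Runx3-/- arrays, and the difference of -0.29 (1.22-fold) did not pass (limma unadjusted p = 0.204, adjusted p = 0.517). Ptpn18, which is found in blood progenitors and acts on receptor and adaptor tyrosines, read 11.62, 11.73 and 12.08 in WT and 11.88, 11.09 and 11.31 in Runx3-/-. Here Runx3-/- replicate 1 lay among the WT arrays and the other two lay below them. The difference was -0.39, and without Runx3-/- replicate 1 it was -0.61 and met the study's thresholds (limma unadjusted p = 0.0398, adjusted p = 0.287). It met them in only 1 of the 18 alternatives described below, and was -0.0011 with the mean of all its probe sets. A second probe set of Ptpn18, near background (4.31 to 5.74), gave 0.38. Ptpn12, PTP-PEST, which controls adhesion and the cytoskeleton, read 13.07, 12.59 and 12.62 in WT and 12.84, 13.08 and 12.69 in Runx3-/-. Its groups overlapped, with a difference of 0.11 (95% interval -0.41 to 0.63), and its 4 probe sets gave -0.25 to 0.11.

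RUNX factors bind variants of a short motif, often near sites of ETS factors in lymphocytes. The promoter windows of the 3 genes whose groups did not overlap are therefore shown, and where a gene has several, numbered along the chromosome, those that hold RUNX letters. The windows are those of RefSeq on GRCm38.p6, from 250 bases before to 50 bases after an annotated start, and 27 of the 32 genes matched an entry. Ptpn2, Ptpn12, Ptprb, Ptprd and Ptprv had no entry. Capitals mark the letters of either motif on either strand. For RUNX they are TGTGGT or the same with C in the last place, TGTGGC, and the forms with C in the middle, which read TGCGGT or, with C in both places, TGCGGC. For ETS they are AGGAAG or, with another first base, CGGAAG. The ETS letters were chosen after the Ptpn6 window had been read. RUNX and ETS letters overlap in none of the windows shown.
Ptpn6 window, GRCm38.p6 chr6:124738660-124738959, minus strand: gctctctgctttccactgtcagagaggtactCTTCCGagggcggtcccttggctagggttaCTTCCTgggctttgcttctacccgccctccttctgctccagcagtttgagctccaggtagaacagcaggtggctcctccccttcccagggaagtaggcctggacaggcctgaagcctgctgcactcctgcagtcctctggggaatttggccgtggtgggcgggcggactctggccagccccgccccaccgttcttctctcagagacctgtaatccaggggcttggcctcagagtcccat
Ptpn22 window 2, GRCm38.p6 chr3:103860027-103860326, plus strand: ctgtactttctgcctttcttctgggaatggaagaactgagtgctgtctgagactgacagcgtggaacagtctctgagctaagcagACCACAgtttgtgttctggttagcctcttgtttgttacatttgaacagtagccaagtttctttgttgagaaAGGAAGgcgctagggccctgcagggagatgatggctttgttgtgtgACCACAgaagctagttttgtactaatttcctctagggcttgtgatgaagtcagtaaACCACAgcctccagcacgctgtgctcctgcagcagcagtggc
Ptpre window 2, GRCm38.p6 chr7:135593231-135593530, plus strand: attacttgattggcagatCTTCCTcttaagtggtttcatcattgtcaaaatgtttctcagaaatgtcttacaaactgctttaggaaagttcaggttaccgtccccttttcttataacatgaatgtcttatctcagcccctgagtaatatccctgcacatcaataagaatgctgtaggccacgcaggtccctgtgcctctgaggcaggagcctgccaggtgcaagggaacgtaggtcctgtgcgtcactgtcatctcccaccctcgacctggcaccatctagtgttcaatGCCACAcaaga
Ptpre window 3, GRCm38.p6 chr7:135605578-135605877, plus strand: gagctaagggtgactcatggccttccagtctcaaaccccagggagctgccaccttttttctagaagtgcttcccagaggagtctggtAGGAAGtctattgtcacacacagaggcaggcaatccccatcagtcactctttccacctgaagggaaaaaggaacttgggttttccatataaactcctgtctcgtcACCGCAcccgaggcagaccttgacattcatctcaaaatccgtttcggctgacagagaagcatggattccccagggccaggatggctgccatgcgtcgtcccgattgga
The Ptpn6 window holds 0 RUNX and 2 ETS matches. Window 2 of Ptpn22 holds 3 RUNX matches, all of the form ACCACA on the printed strand, and 1 ETS match. Each Ptpre window shown holds 1 RUNX and 1 ETS match. Window 1 of Ptpn22 and window 1 of Ptpre, not shown, hold 0 RUNX matches. Over the family, 15 of 27 genes had a RUNX match in at least 1 window, or 55.6%, against 48.7% of all 27025 genes with a window. Among tested genes of the family it was 10 of 16. Of 40 windows of the family, 20 held RUNX letters and 23 held ETS letters, against 45.2% and 46.5% of all 32851 windows. A match is a description of the letters and not of binding, and a window without one says nothing about sites elsewhere.

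Ptprc encodes CD45, the abundant leukocyte phosphatase that opens Src family kinases for activity. Its brighter probe set read 15.11, 14.77 and 14.51 in WT and 15.06, 15.02 and 14.83 in Runx3-/-, with overlapping groups and a difference of 0.17 (95% interval -0.35 to 0.69). The dimmer probe set read 9.55, 8.46 and 8.03 in WT and 10.31, 9.84 and 8.97 in Runx3-/-. It was 2.04-fold higher in Runx3-/-, but WT replicate 1 lay above Runx3-/- replicate 3 and the change did not pass (limma adjusted p = 0.375 with every probe set tested). The probe sets thus differed by over 1.5-fold in their change. The dimmer minus the brighter set was -5.56, -6.31 and -6.48 in WT and -4.75, -5.18 and -5.87 in Runx3-/- (exact permutation p = 0.2, smallest possible 0.1). Which part of the transcript either set reads is not known here. Ptprcap, the CD45-associated protein, which is no member, differed by -0.23 (limma adjusted p = 0.646).

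Ptpn1 and Ptpn2 encode PTP1B and TCPTP, which dephosphorylate Jak kinases and Stat proteins after cytokine stimulation. Ptpn1 read 12.10, 11.96 and 12.28 in WT and 12.45, 11.65 and 11.74 in Runx3-/-, where replicate 1 was above and the other replicates were below all WT arrays. Its difference was -0.16 (95% interval -0.78 to 0.45), against 0.09 on its dimmer probe set. Ptpn2 read 12.14, 11.98 and 11.39 in WT and 12.15, 11.91 and 11.78 in Runx3-/-, with a difference of 0.11 (95% interval -0.48 to 0.71). The other 2 probe sets of Ptpn2 at log2 5 or more on all arrays gave 0.10 and 0.08. For neither gene did any probe set separate the groups.

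**Figure D4:**
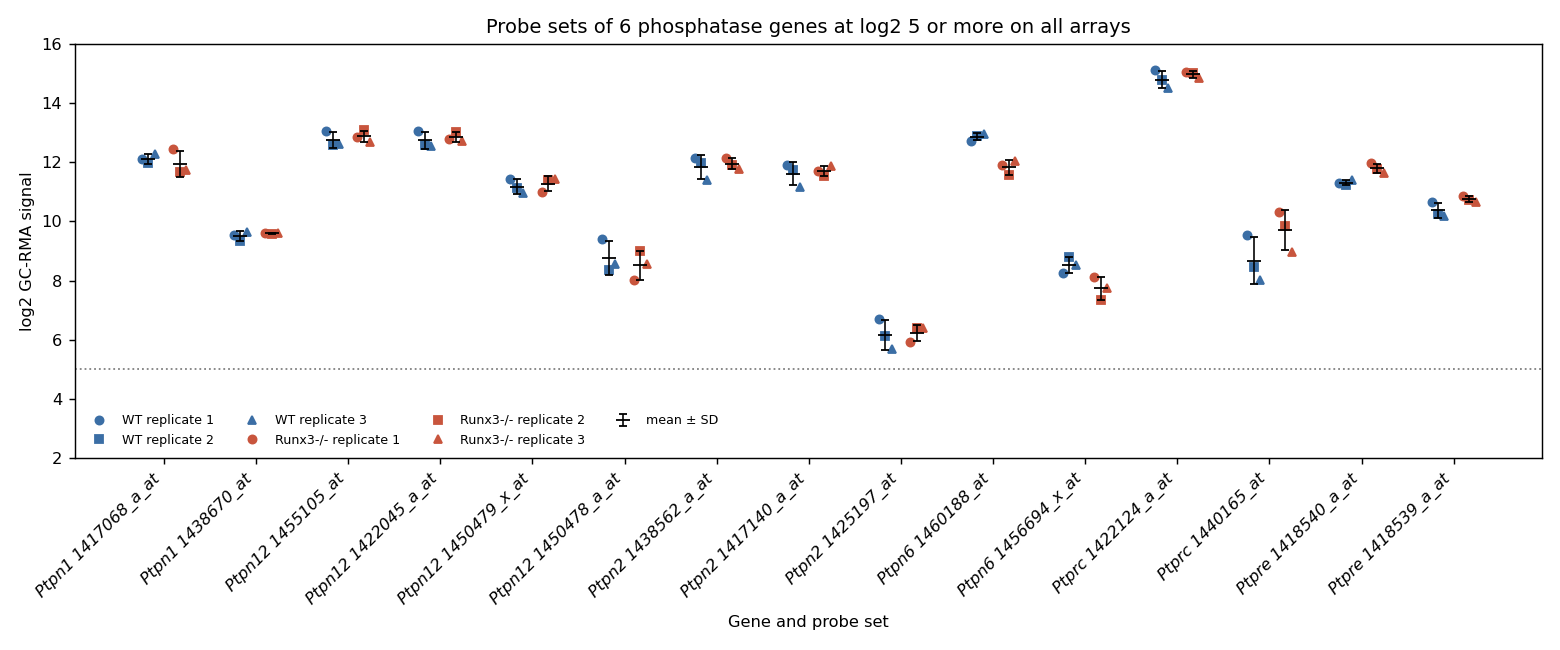
Log2 GC-RMA signal (vertical axis) of the probe sets of 6 phosphatase genes that were at log2 5 or more on all arrays (horizontal axis), WT in blue and Runx3-/- in red, each group with its mean and SD over 3 arrays in black. Both probe sets of Ptpn6 lie lower in Runx3-/-, while the 2 probe sets of Ptprc differ in their change (0.17 and 1.03 on the log2 scale).

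Ptprs encodes PTP sigma, a LAR-type receptor that binds heparan and chondroitin sulfate and marks plasmacytoid dendritic cells. Its signal was 6.79, 8.20 and 7.44 in WT and 7.57, 6.26 and 6.58 in Runx3-/-, and it varied widely in both groups. The difference, -0.67 or 1.60-fold, was past 1.5-fold without passing the test (limma unadjusted p = 0.174, adjusted p = 0.484). It was -1.06 without Runx3-/- replicate 1 and then met the study's thresholds (unadjusted p = 0.0454, adjusted p = 0.297). It was -0.31 without WT replicate 2 (adjusted p = 0.801). Siglech, a defining marker of plasmacytoid dendritic cells, was under log2 5 on all arrays. Tcf4, Bst2 and Irf8 of the same dendritic cell list were at log2 5 or more on all 6 arrays. Whether such cells carried the signal of Ptprs was not tested. The other LAR-type receptors, Ptprd and Ptprf, were under log2 5 on all arrays.

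Of the fibronectin-repeat receptors, Ptprv, which encodes the osteotesticular phosphatase OST-PTP, read 8.29, 7.41 and 7.75 in WT and 8.96, 7.84 and 8.27 in Runx3-/-. The groups overlapped, with a difference of 0.54 (95% interval -0.28 to 1.35, limma adjusted p = 0.476). Ptprj, which encodes CD148, a positive regulator of Src kinases in myeloid and B cells, lay near background. It read 4.80, 5.27 and 5.24 in WT and 4.90, 6.45 and 4.43 in Runx3-/-, so that 1 Runx3-/- array stood above all others. Ptpro reached log2 5 on Runx3-/- replicate 1 only (5.09), against 2.82 to 4.27 on the other arrays, and the same array had the highest level of macrophage markers. Whether the cells behind those markers carried this signal was not tested.

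In the remaining cytoplasmic phosphatases the groups overlapped. Ptpn9, or PTP-MEG2, which sits on secretory vesicles, read 9.39, 9.79 and 9.88 in WT and 9.24, 9.32 and 9.54 in Runx3-/-, and the difference of -0.32 (95% interval -0.83 to 0.19) did not pass. Ptpn23, HD-PTP, which sorts receptors at endosomes, differed by -0.22. Of the FERM-domain phosphatases, which act at the cell cortex, Ptpn4 read 11.59, 10.49 and 10.15 in WT and 11.31, 11.21 and 10.47 in Runx3-/-, so that the spread within the groups was larger than the difference of 0.25. Ptpn3, which was near background (5.32 to 5.77 over the 6 arrays), differed by -0.21 and Ptpn21 by -0.13.

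The genes that work with the phosphatases were followed in 4 lists. Of 19 tested kinases that the phosphatases oppose, the study's thresholds called 2 higher and 0 lower (10.5%, against 13.8% of all tested genes), with a median difference of -0.06 on the log2 scale and 0 past BH 5% (2 with an unadjusted p under 0.05). These were Btk, a Tec family kinase of B and myeloid cells (2.57-fold, limma adjusted p = 0.218), and Fgr, a myeloid Src family kinase (1.80-fold, adjusted p = 0.192). Btk read 7.32, 6.56 and 7.34 in WT and 9.44, 7.83 and 8.04 in Runx3-/-, and these groups did not overlap. Zap70, the kinase downstream of the activating receptor chains, read 11.19, 11.24 and 11.32 in WT and 11.00, 10.66 and 10.75 in Runx3-/-, lower in each array without passing (difference -0.44, adjusted p = 0.315). Blk, a Src family kinase of B cells, and Tnk2 lay higher on all Runx3-/- arrays and did not pass either (differences 0.98 and 0.35, adjusted p = 0.377 and 0.401). In the remaining kinases, Syk, Csk, Fyn and the Jak kinases among them, the groups overlapped, with differences from -0.28 (Abl2) to 0.53 (Jak2).

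Of 23 tested adaptors and partners, 1 was higher and 0 lower (4.35%, against 13.8% of all tested genes), with a median of -0.10 and 0 past BH 5% (2 with an unadjusted p under 0.05). It was Gab2, a docking protein that binds Ptpn11 (2.28-fold, limma adjusted p = 0.158), with 10.06, 9.18 and 9.77 in WT and 11.35, 10.78 and 10.46 in Runx3-/-. Gab2 is known for its role in mast cells and basophils, and their markers were higher in the same arrays. Their part in the signal of Gab2 was not tested. Skap1, the other adaptor with an unadjusted p under 0.05, was lower on every Runx3-/- array than on every WT array. Its difference of -0.55, or 1.47-fold, was under the 1.5-fold limit (limma unadjusted p = 0.0239, adjusted p = 0.239).

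The list of inhibitory receptors was drawn from general knowledge and holds no Ly49 gene. Of its 25 genes, 20 had a probe set with a single symbol. Of 17 tested inhibitory receptors that recruit Ptpn6 or Ptpn11, 8 were higher and 0 lower (47.1% called, against 13.8% of all tested genes), with a median difference of 1.15 on the log2 scale against -0.13 over all tested genes. None passed BH 5% (0 by limma, 8 with an unadjusted p under 0.05). Klrc1, the NKG2A receptor of NKC, read 12.86, 12.44 and 12.66 in WT and 13.13, 13.78 and 13.94 in Runx3-/- (1.95-fold, limma adjusted p = 0.163), and its groups did not overlap. Pirb, a myeloid and B cell receptor, was at least 3.24-fold higher with values under log2 5 raised to 5 (limma adjusted p = 0.155 without raising). Cd300lf, a myeloid receptor, was 2.68-fold higher (adjusted p = 0.158). Cd22, a B cell receptor that also stands in the B cell list, was 2.74-fold higher (adjusted p = 0.209). Fcgr2b, Cd300a, Btla and Ceacam1 were the other members called. In Cd22, Cd300a, Btla and Ceacam1 the groups overlapped. They did not overlap in 4 of the 17 receptors, all higher, against 22.8% of all tested genes (5.98% higher). The count of called members was 4 without Runx3-/- replicate 2 or without WT replicate 2, and 5 without Runx3-/- replicate 1. Klrg1 and Cd244a, both on NKC, differed by 1.15 and -0.20 and did not pass (adjusted p = 0.354 and 0.658). Most of the called members are receptors of B or myeloid cells, and the basophil and B cell markers were higher on all Runx3-/- arrays. The part of those cells in the list was not tested.

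Of 32 tested members among other tyrosine and dual-specificity phosphatases, the study's thresholds called 1 higher and 5 lower (18.8%, against 13.8% of all tested genes), with a median of -0.10 and 0 past BH 5% (7 with an unadjusted p under 0.05). Eya1, a transcription cofactor with phosphatase activity, read 8.05, 8.34 and 8.61 in WT and 7.21, 7.45 and 7.12 in Runx3-/- (2.11-fold lower, limma adjusted p = 0.102). Dusp19, which acts on the JNK pathway, read 9.14, 9.88 and 9.65 in WT and 8.30, 8.62 and 8.74 in Runx3-/- (adjusted p = 0.148), and Dusp12 was 1.70-fold lower (adjusted p = 0.204). Dusp1, an immediate early phosphatase of MAP kinases, was 2.58-fold higher (adjusted p = 0.183). In each of these 4 genes the groups did not overlap.

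**Figure D5:**
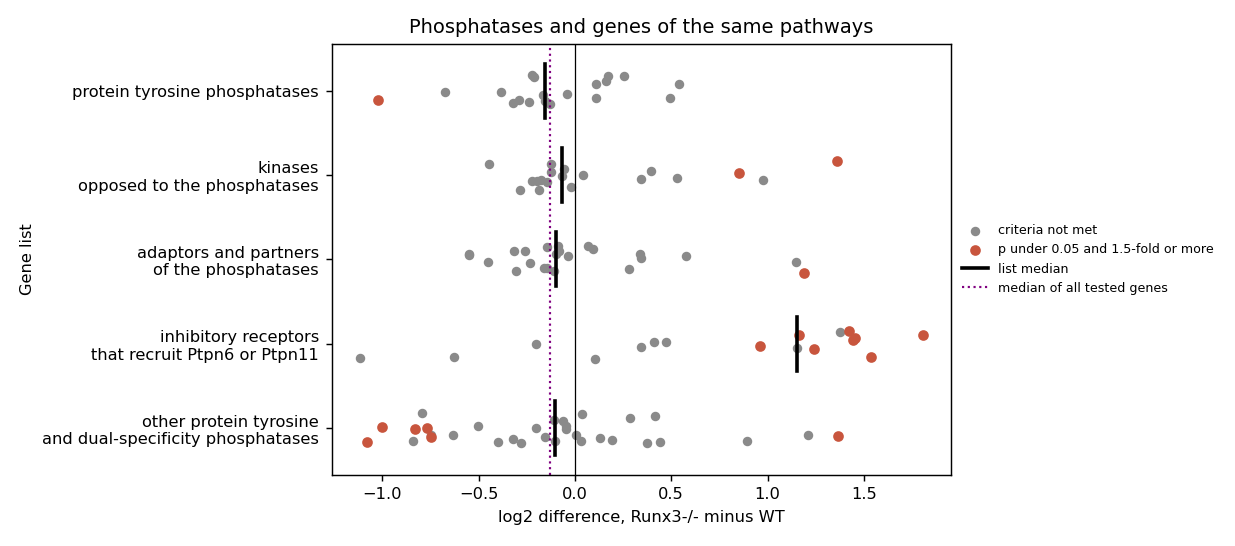
Each point is a tested gene of the phosphatase family or of 4 lists of genes from the same pathways (vertical axis), placed by its log2 difference, Runx3-/- minus WT (horizontal axis), with red points for genes past the study's thresholds and black bars for list medians. The median of the inhibitory receptors (1.15) lies to the right of the medians of the other lists (-0.16 to -0.06).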

How the data were processed

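The authors hybridised RNA of resting splenic NKC to Affymetrix arrays and deposited log2 GC-RMA values made in Partek (45101 probe sets, no version named). GC-RMA estimates background from base content, so that dim signals depend on that estimate. The study's background level is not stated in the sources read, and log2 5 was taken.

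A single symbol was given for 34945 probe sets, and all 32 members matched a RefSeq gene. The brightest probe set (mean over 6 arrays) stood for each gene. With 9545 genes tested, limma 3.58.1 in R 4.3.3 fitted genotype without covariates, with Benjamini-Hochberg adjustment over all of them. The looser criterion follows the study, which names no test. Where the lower group had an array under log2 5, the fold of a called gene was computed with values raised to 5 ("at least"). Single values were compared by a two-sided exact permutation test. The fit was also run on simulated arrays, and the outcome is not given here. Values per array were given for members called, for the 6 with the highest WT mean and for those whose probe sets disagreed, other members being shown after their values were seen. Of each list, up to 4 called genes with the smallest p were named. Zap70, Blk, Tnk2, Abl2, the Jak kinases, Syk, Fyn, Csk, Skap1, Ptprcap, Klrg1 and Cd244a were added after seeing their values. So were the other called receptors and the marker genes with values. Members and lists were chosen with earlier results of these data known. At most 0.0111% of values were identical between any 2 arrays. The number of arrays limits the precision. Alternatives covered the filter, floor, normalization, moderation, array weights, probe set choice, the replicate number as a block and each array left out.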

Additional observations from a re-analysis of the deposited data

How the results depend on the processing

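Ptpn6 kept its direction and met the study's thresholds in all 18 alternatives, with differences of -1.12 to -0.88 on the log2 scale and limma adjusted p from 0.0423 to 0.283. Its groups are separate, so no omitted array could turn its sign. It passed BH 5% with trend and robust options (adjusted p = 0.0423) and with array weights (0.0491), so that the count of phosphatase genes past BH 5%, 0 as reported, was 1 in these settings. The count at the study's thresholds, 1 as reported, was 2 with array weights, where Ptprs joined (-1.16), and 2 with each array centred on the median of the tested genes, an alternative added after seeing the data, where Ptpre joined and Ptpn6 was at -0.90. That centring moved the median of all tested genes from -0.13 to -0.0072. Leaving out each array gave 1 to 3 genes, the highest without Runx3-/- replicate 1, and 0 genes past BH 5% each time. The median difference of the family was -0.013 with the mean of all probe sets of a gene, against -0.16, and -0.22 to -0.06 when each array was left out. Of the 19 genes, 8 changed sign in at least 1 alternative, none of them past the thresholds as reported.

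Of the lists, the inhibitory receptors had 5 called genes without a filter and 5 with the mean of all probe sets, against 8, and 4 to 8 when each array was left out. The adaptors had 2 called genes, against 1, with the 3-array filter, either centring, trend and robust options, array weights, no _x_at and _s_at probe sets or the replicate block, and 1 to 3 when each array was left out (3 without WT replicate 3, 1 without Runx3-/- replicate 1, 2 otherwise). The kinases had 1 (without WT replicate 2) to 3 and the other phosphatases 4 to 8 when each array was left out.

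The groups share replicate numbers, and the labels do not say whether same-numbered arrays were prepared as pairs. Deviations of same-numbered arrays correlated at 0.07, -0.19 and 0.15. A correlation over many genes cannot decide the question, since pairing could show in some genes only. The means of the B cell and macrophage markers fell at each step from replicate 1 to replicate 3 in both groups. The neutrophil mean was also lower on replicate 3 than on replicate 1 in both groups, though in WT it was highest on replicate 2. The platelet mean was lowest on replicate 1 in both groups. In the other cell type lists the change from replicate 1 to replicate 3 differed in direction between the groups. Whether same-numbered arrays shared a batch was not tested. With the replicate block, Ptpn6 kept its call at the study's thresholds (difference -1.02, limma adjusted p = 0.179), and the count of all genes past BH 5% fell from 58 to 0. Without WT replicate 1 that count was 130, and it was 0 when any of the other arrays was left out.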
